A study of Mus musculus with 54 samples.

Results

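Nuclei were compared with whole cells of the kidney of 15-week-old Balb/c mice, gene by gene. The libraries were chosen by their labels, and they are 6 of the 54 libraries of the series: 3 single-nucleus (snRNA-seq) and 3 single-cell (scRNA-seq) libraries, all made on the 10x Genomics droplet platform with version 3 chemistry. Every mouse was female, wild-type and untreated and had earlier served as a breeder. The study describes the 3 libraries of a group as made from 3 different mice. For scRNA-seq, fresh kidney was digested with a protease that works in the cold, and the suspension was loaded without storage. For snRNA-seq, flash-frozen kidney was broken up, and the nuclei were washed 3 times, spun at 500 g, stained with DAPI and sorted by fluorescence-activated nuclei sorting (FANS). Freezing, sorting and the counting of intronic reads went with nuclei alone, so their parts in any difference between the preparations cannot be told apart.

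A nucleus and a whole cell hold different RNA. Transcripts in the nucleus are still being made or spliced, or are kept there, as the noncoding RNAs of speckles and of the inactive X chromosome are. Most mature messenger RNA is in the cytoplasm, where ribosomes translate it, and much of the cytoplasm is lost when nuclei are isolated. Most of the kidney's RNA comes from tubule epithelium, above all from the proximal tubule, which is rich in mitochondria and takes back most of the filtered salt, glucose, amino acids and protein.

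The files held 16947 barcodes of cells (4606, 7928 and 4413 per library) and 23256 of nuclei (8657, 7628 and 6971). Total counts of unique molecular identifiers (UMIs) were 19340835, 27869324 and 16622862 for cells and 30380964, 30416400 and 27228611 for nuclei. The comparison used the 13890 genes listed in all 6 files, of 19099 listed in any. Over these genes, the median UMI count per barcode was 1964, 1510 and 1775 in cells and 3217, 3824 and 3712 in nuclei, 2.05-fold higher in nuclei (exact permutation test over libraries, two-sided p = 0.1, the smallest that 3 against 3 libraries allow). Over all genes listed in each file, mitochondrial ones included, the medians were 2990.5, 2293 and 2671 against 3274, 3893.5 and 3782, 1.38-fold higher in nuclei. Median genes per barcode were 1058.5, 877 and 966 in cells against 1639, 1917.5 and 1843 in nuclei. In these measures the groups did not overlap. The study removed nuclei under a minimum UMI count and states no such minimum for cells. It also set an upper limit on genes per barcode for both preparations. The most genes in any barcode of a library lay between 2989 and 2999 over the 6 libraries. The parts of these filters in the medians were not tested. Any 2 of the 6 libraries shared between 5 and 22 barcode sequences. Kidney identity was clear on both sides: the 18 listed proximal tubule markers summed to between 19752 and 23242 CPM (UMI counts scaled to the same total in every library) in cells and between 12273 and 13513 in nuclei.

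Genes listed on 1 side only could not be compared, and they are large in number on the side of nuclei and large in level on the side of cells. Mitochondrial genes were the main part: the cell files listed 13 of them, which took 33.6%, 33.2% and 31.3% of all UMIs, and the nuclei files listed none, since they had been removed. A further 407 genes were listed for cells alone and held 1.32% of their UMIs. The 5 highest of these were Cox4i1, a subunit of respiratory complex IV, Chchd2, the ribosomal protein gene Rpl13, Ndufa13 of respiratory complex I and Etfb, an electron carrier of fatty acid oxidation. Cox4i1 was at 2934, 3016 and 2746 CPM in cells. A share of 72.5% of the 385 annotated genes of this set overlapped another gene on the same strand, against 21.1% of the genes listed in all 6 files, and 70.4% had most of their exonic bases inside another gene, against 1.36%. The files of nuclei alone listed 4789 genes, which held 1.82% of the UMIs of nuclei and of which 59.3% were protein coding, against 94.4% of the genes listed on both sides. Among their highest were Gm20388, the transcription factor gene Klf12 and Fbxl7, a ubiquitin ligase subunit.

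The libraries of each preparation were far more alike than libraries of different preparations. Within a preparation they still differed beyond counting noise, which alone would give a chi-square over degrees of freedom near 1. That ratio was 7.95 to 12.1 for pairs of cell libraries and 14.4 to 32.7 for pairs of nuclei libraries, highest for nuclei libraries 1 and 2. Pearson's r of log2 CPM over 13762 genes was between 0.986 and 0.989 for pairs of cell libraries, between 0.992 and 0.996 for pairs of nuclei libraries, and between 0.508 and 0.546 for a cell with a nuclei library (across genes, as a description). Of the 13890 genes, 13762 passed the filter on low counts and were tested on UMI sums per library with edgeR's quasi-likelihood test. A gene was called at a Benjamini-Hochberg adjusted p below 0.05 and a log2 fold change of at least 1 in size. The test called 4376 genes higher in nuclei, 31.8% of those tested, and 4312 higher in cells, 31.3%. Counts of list members in all barcodes below are to be read against these shares. The median log2 fold change of nuclei over cells was 0.10, and the quartiles were -1.50 and 1.45. With library totals in place of the TMM factors of edgeR, the median moved to 0.54 and the calls to 5543 higher in nuclei and 3483 higher in cells, so that 61.4% of calls were higher in nuclei instead of 50.4%. In 12019 genes, 87.3% of those tested, the 3 nuclei and 3 cell libraries did not overlap. Levels below are CPM scaled by TMM, given for cells 1, 2 and 3 and then nuclei 1, 2 and 3, and every fold change is nuclei over cells on the log2 scale with its standard error (SE), derived from the fold change and its F statistic. A sum over all barcodes cannot tell fewer cells of a type from less RNA per cell.

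Genes for the cytoplasmic translation machinery were lower in nuclei without exception among those tested. All 48 tested genes of the large ribosomal subunit and all 33 of the small subunit were called higher in cells, against 31.3% of all genes, with medians of -6.36 and -6.35. The large subunit genes together took 63562, 73138 and 64644 CPM in cells and 899, 1040 and 991 CPM in nuclei. Rpl21 was at 1405, 1517 and 1424 CPM in cells and at 2.59, 3.24 and 2.73 CPM in nuclei (log2 fold change -8.98 ± 0.15). The smallest change of the large subunit was that of Rpl29, at 44.3, 39.8 and 35.2 against 1.31, 4.98 and 2.92 CPM (-3.68 ± 0.36). In the small subunit, Fau, which encodes a ubiquitin-like protein fused to a ribosomal protein, was at 2600, 3068 and 2652 against 6.11, 8.63 and 7.21 CPM (-8.56 ± 0.20). Rps15 moved least there, from 1188, 1336 and 1232 to 42.0, 48.4 and 49.9 CPM (-4.74 ± 0.12). Each of these genes separated the 6 libraries without overlap. Ribosomal protein genes have many near-identical processed pseudogenes, which makes their counts uncertain, and the part of this in the differences was not tested.

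The start of a ribosomal protein transcript is known for a C followed by a run of pyrimidines, which controls its translation. The start sites of 52 of the 82 ribosomal protein genes were found in the RefSeq promoter table (GRCm38.p6). With a C at the first transcribed base and C or T at each of the next 4 (sense strand, at the annotated start only), 12 of the 52 matched, 23.1%, against 2.47% of 22862 genes. The 4 matching genes with the highest level in cells, a choice made after their values were seen, are shown to let the shared start be seen, from 20 bases before the start, with the first 5 transcribed bases in capitals.
Fau (chr19:6057927-6057956, plus strand): ggacgtgcgcgcccccacttCTTCCtcttt
Rpl28 (chr7:4792945-4792974, plus strand): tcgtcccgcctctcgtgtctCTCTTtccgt
Rps10 (chr17:27635235-27635264, minus strand): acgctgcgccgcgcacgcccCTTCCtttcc
Rps15a (chr7:118116138-118116167, minus strand): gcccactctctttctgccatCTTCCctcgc
The log2 fold changes of these genes were -8.56, -6.18, -6.40 and -7.11. Outside the ribosomal protein genes, the 191 tested genes with such a start had a median of 0.10, and 30.9% were called in each direction.

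Translation factors and the respiratory chain went the same way. All 24 translation factor genes were called higher in cells (median -3.81), from Tpt1, a translationally controlled growth-related protein, at 4629, 5119 and 4745 against 40.5, 43.9 and 40.0 CPM (-6.86 ± 0.14), to Eif5b, a factor that joins the ribosomal subunits, at 148, 158 and 152 against 64.7, 58.1 and 60.1 CPM (-1.32 ± 0.07, and -0.89 with library totals, not called). Eef1a1, which brings aminoacyl-tRNA to the ribosome, fell by 5.18 on the log2 scale, from 4144, 4352 and 3971 to 106, 127 and 111 CPM. Nuclear-encoded respiratory genes were called higher in cells in 36 of 36 tested genes of complex I (median -5.29), 14 of 14 of complexes II and III (-4.59), 10 of 10 of complex IV (-5.40) and 18 of 18 of the ATP synthase (-5.22). Ndufa4 was at 3305, 3968 and 3293 against 37.5, 35 and 28.0 CPM (-6.72 ± 0.18). Cox6c was at 3503, 4267 and 3654 against 52.4, 56.6 and 50.6 CPM (-6.16 ± 0.15), and the catalytic ATP synthase subunit gene Atp5b at 3356, 3628 and 3100 against 137, 130 and 119 CPM (-4.70 ± 0.13). Ndufs1, the largest subunit of complex I, had the smallest change of the chain, from 238, 270 and 215 to 117, 115 and 111 CPM (-1.08 ± 0.10), and it was no longer called without cell library 2 (-0.98) or with library totals (-0.63). Proteasome genes were called higher in cells in 31 of 34 cases (median -3.25), against 31.3% of all genes. Psmd1, a large regulatory subunit of the proteasome, was at 83.9, 87.8 and 87.6 against 96.6, 81.1 and 81.9 CPM, and its groups overlapped (0.00, adjusted p = 0.99).

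**Figure D1:**
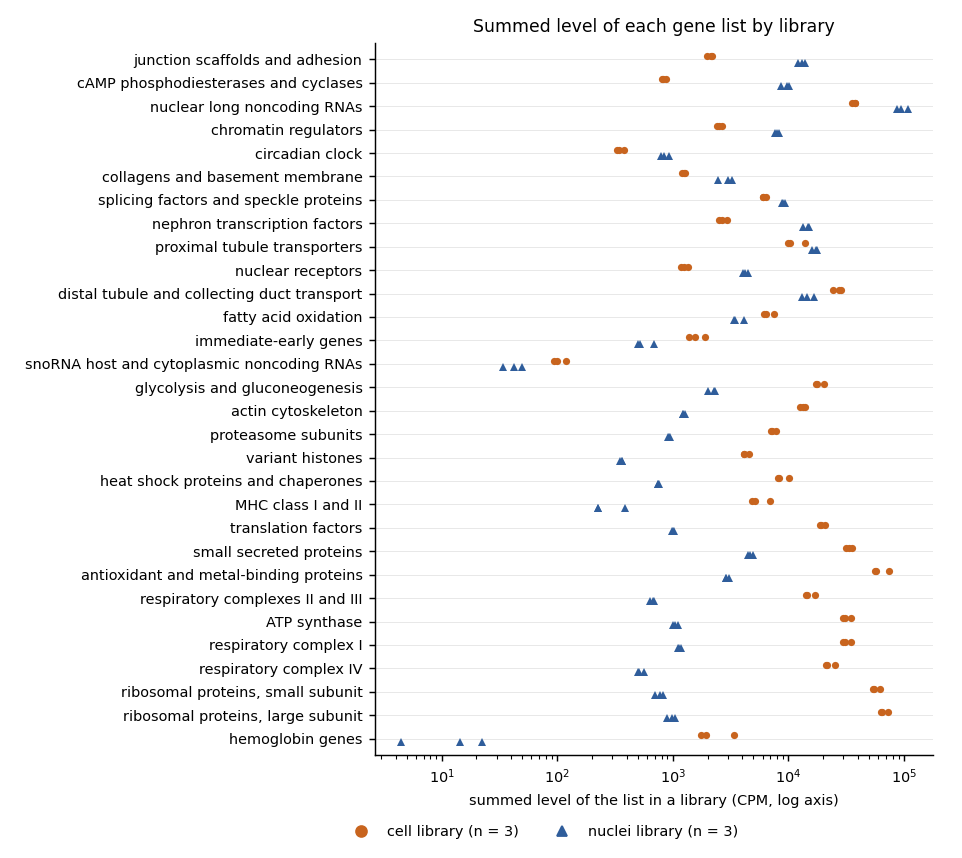
Summed level of the tested members of each gene list in the 3 cell and 3 nuclei libraries, in CPM scaled by TMM on a log axis, with 1 point per library. Large-subunit ribosomal protein genes lay between 63562 and 73138 CPM in cells and between 899 and 1040 CPM in nuclei, and junction and adhesion genes between 1965 and 2206 CPM in cells and between 12168 and 13882 CPM in nuclei.

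Genes for small, abundant cytoplasmic and secreted proteins were also higher in cells. Of the 28 antioxidant and metal-binding genes, 25 were called higher in cells and 1 higher in nuclei (median -4.52). The shares over all genes were 31.3% and 31.8%. Gpx3, the glutathione peroxidase that the kidney secretes into plasma, was at 13787, 19203 and 12931 against 884, 755 and 810 CPM (-4.23 ± 0.21), and Fth1, the ferritin heavy chain, at 13600, 17594 and 12497 against 446, 491 and 502 CPM (-4.92 ± 0.19). The 1 antioxidant gene higher in nuclei, Gclc, codes for the catalytic subunit of the rate-limiting enzyme of glutathione synthesis. It was at 107, 120 and 105 CPM in cells and at 414, 159 and 167 CPM in nuclei (1.16 ± 0.35, adjusted p = 0.013), with nuclei library 1 far above the others, and it was not called without that library (0.57). Small secreted proteins were called higher in cells in 17 of 21 genes (median -3.96), led by Klk1, a kallikrein of the connecting tubule, at 12259, 8728 and 8660 against 85.2, 98.1 and 63.9 CPM (-6.91 ± 0.27). The 1 called higher in nuclei was Pcolce2, an enhancer of procollagen processing, at 2.24, 1.03 and 1.10 against 8.47, 8.83 and 7.66 CPM (2.53 ± 0.27). Of 20 genes of glycolysis and gluconeogenesis, 15 were called higher in cells and 0 higher in nuclei (median -3.03). Gapdh, which has many processed pseudogenes and is often taken as a reference gene, was at 2404, 2893 and 2461 against 3.31, 6.38 and 4.87 CPM (-9.05 ± 0.28). Pcx, pyruvate carboxylase, was at 95.7, 135 and 93.7 against 155, 177 and 200 CPM (0.71 ± 0.16, not called).

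Fatty acid oxidation, the main fuel pathway of the proximal tubule, was shifted to cells, with exceptions. Of its 26 genes, 13 were called higher in cells and 3 higher in nuclei (median -1.10), against 31.3% and 31.8% of all genes. The mitochondrial enzymes were among those higher in cells, such as Acadvl at 264, 291 and 227 against 11.8, 11.3 and 12.7 CPM (-4.45 ± 0.12) and Acadm at 539, 630 and 563 against 207, 107 and 104 CPM (-2.05 ± 0.26). Ppara, the nuclear receptor that turns the pathway on, was 1 of the 3 higher in nuclei, at 28.7, 31.2 and 19.4 against 312, 504 and 580 CPM (4.13 ± 0.28). Acsm2, an acyl-CoA synthetase of the proximal tubule, was at 896, 1272 and 912 against 873, 638 and 846 CPM, and its difference was not called (-0.39 ± 0.18, adjusted p = 0.071).

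Cytoskeletal, stress and immune genes were higher in cells as well. Of 27 actin cytoskeleton genes, 20 were called higher in cells (median -3.16), against 31.3% of all genes. Tpm2, a tropomyosin of smooth muscle, had the largest change, at 230, 127 and 167 against 0.328, 0.55 and 0.357 CPM (-8.69 ± 0.32). The markers of mesangial and mural cells, all 10 of them listed, moved with it, from 1095, 570 and 793 unscaled CPM in cells to 114, 137 and 113 in nuclei, and that class was 1.65% of cells and 0.70% of nuclei. Within that class, 21 of 23 tested genes of the actin list were called higher in cells (median -3.60), against 40.4% of all genes of the class. The part of the class share in the difference was not tested. Actb was at 1607, 1600 and 1799 against 41.5, 50.4 and 37.1 CPM (-5.28 ± 0.16). Myh9, a nonmuscle myosin heavy chain, had the highest value of the list, at 78.3, 73.0 and 81.5 against 113, 113 and 118 CPM (0.57 ± 0.07, not called). Heat shock and chaperone genes were called higher in cells in 19 of 22 cases (median -3.28), against 31.3% of all genes. Hspe1, the mitochondrial cochaperone, was at 951, 1343 and 953 against 13.2, 18.9 and 13.8 CPM (-6.14 ± 0.23), and Hsp90ab1 at 1419, 1638 and 1262 against 23.5, 25.5 and 23.9 CPM (-5.89 ± 0.15). Hspa4l, a nucleotide exchange factor for Hsp70, was at 34.9, 37.99 and 35.4 against 34.9, 26.0 and 29.9 CPM (-0.25 ± 0.11, not called). All 14 genes of MHC classes I and II were called higher in cells (median -3.55), with Cd74, the invariant chain of class II, at 1590, 1340 and 2392 against 12.3, 23.6 and 10.7 CPM (-6.83 ± 0.40) and Tap1, a peptide transporter, at 15.0, 13.8 and 17.7 against 4.17, 7.59 and 4.74 CPM (-1.48 ± 0.23). Macrophage markers moved with these: all 9 were listed, and they summed to between 394 and 805 unscaled CPM in cells and between 47.7 and 56.7 in nuclei. Variant histone genes, whose messages carry a poly(A) tail, were called higher in cells in 8 of 9 cases (median -3.27). H2afz was at 474, 504 and 471 against 15.8, 18.1 and 15.9 CPM (-4.86 ± 0.10).

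Immediate-early genes, which respond to stress within minutes, were called higher in cells in 13 of 23 cases and higher in nuclei in none (median -1.36). The shares over all genes were 31.3% and 31.8%. Jund was at 369, 380 and 445 against 43.1, 50.3 and 43.8 CPM (-3.12 ± 0.11), and Klf2, a transcription factor of endothelium and lymphocytes, at 101, 84.1 and 111 against 7.37, 5.83 and 5.78 CPM (-3.96 ± 0.14). The other 10 were not called. Egr1 was at 6.37, 12.7 and 26.6 CPM in cells and at 33.8, 26.5 and 24.8 CPM in nuclei, with overlapping groups (0.92 ± 0.39, adjusted p = 0.055). Fos, named here after its values were seen, was at 1.26, 14.7 and 27.9 against 12.1, 9.57 and 10.3 CPM (-0.44 ± 0.66, adjusted p = 0.54), so that the 3 cell libraries spread more widely than the preparations differed.

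Hemoglobin genes are transcribed in red cell precursors, and mature red cells have no nucleus. All 4 were called higher in cells (median -7.35), and together they took 1958, 1751 and 3394 CPM in cells and 22.2, 14.5 and 4.42 CPM in nuclei. Hbb-bs was at 1367, 1180 and 2241 against 14.8, 9.21 and 2.24 CPM (-7.51 ± 0.66). Hemoglobin RNA was not even over the cells: in the distal convoluted tubule class described below, its sum was 5240, 31.9 and 7967 unscaled CPM in cell libraries 1, 2 and 3.

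Noncoding RNAs known to stay in the nucleus were higher in nuclei. Of the 17 on the list, 11 were tested, 10 were called higher in nuclei, against 31.8% of all genes, and 1 was called higher in cells (median 1.98). Malat1, a noncoding RNA of nuclear speckles, was at 35999, 35600 and 33668 CPM in cells and at 101549, 81452 and 88448 CPM in nuclei (1.37 ± 0.19, adjusted p = 0.00014). Xist, which coats the inactive X chromosome of these females, was at 1109, 1210 and 934 against 2655, 2542 and 2644 CPM (1.27 ± 0.13). Pvt1 had the largest change, from 1.35, 2.20 and 2.39 to 64.0, 55.4 and 59.5 CPM (4.91 ± 0.16). Meg3 was the 1 called higher in cells, at 0, 2.27 and 7.57 against 0.656, 0 and 0 CPM (-3.85 ± 1.51, adjusted p = 0.04), and it was not called without cell library 2 or 3 or without nuclei library 2 or 3 (between -4.06 and -2.42), by DESeq2 (-3.95) or with library totals (-3.46). Of the 11 host genes of small nucleolar RNAs and cytoplasmic noncoding RNAs, only 3 were listed in all 6 files, and all 3 were called higher in cells. They were Snhg12 (-1.01 ± 0.13), Epb41l4aos (-1.67 ± 0.19) and, named after its values were seen, Snhg6 (-1.42 ± 0.14). Snhg12 lay at the threshold, and it was not called in 6 of the alternatives, among them those without cell library 2 (-0.91), nuclei library 1 (-0.88) or nuclei library 3 (-0.99).

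Chromatin regulators were higher in nuclei, and splicing factors were called so about as often as all genes. Of 40 chromatin regulator genes, 31 were called higher in nuclei and 0 higher in cells (median 1.69). Arid1b, a subunit of a chromatin remodelling complex, was at 37.4, 36.8 and 32.6 against 513, 426 and 484 CPM (3.74 ± 0.11), and Ash1l, a histone methyltransferase, at 122, 129 and 113 against 420, 380 and 406 CPM (1.73 ± 0.09). Chd3, another remodeller, was lowest, at 144, 173 and 147 against 100, 110 and 106 CPM (-0.55 ± 0.09, not called). Of 39 splicing factor and speckle protein genes, 12 were called higher in nuclei, against 31.8% of all genes, and 1 higher in cells (median 0.68). Rbm6 was at 49.8, 47.8 and 39.9 against 338, 325 and 340 CPM (2.87 ± 0.10), while Ddx5, an RNA helicase, was at 613, 670 and 645 against 642, 885 and 786 CPM (0.26 ± 0.13, not called). The exception was Hnrnpu, which binds nuclear RNA to the scaffold of the nucleus. It was at 76.3, 94.5 and 85.7 CPM in cells and at 0, 0.33 and 0 CPM in nuclei (-9.43 ± 0.43).

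**Figure D2:**
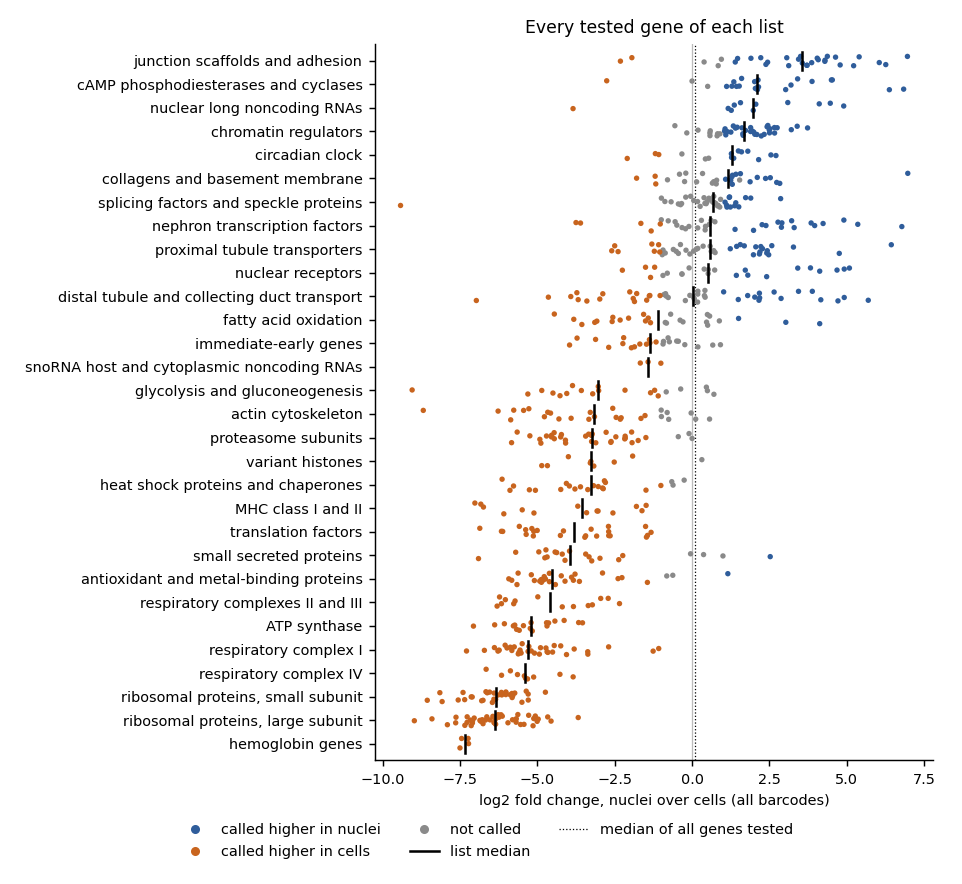
Log2 fold change of nuclei over cells of every tested member of the gene lists (points), with the median of each list (bars), from the edgeR fit of all barcodes. Every tested ribosomal protein gene lies at or below -3.68, and junction, cAMP and chromatin genes lie mostly above 0.

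Cell adhesion and cAMP signalling genes were the lists with the largest shift to nuclei. Gene span, described below, went with the difference over all genes, and its part in the shift of these lists was not tested. Of 31 tested genes of junction scaffolds and adhesion, 26 were called higher in nuclei and 2 higher in cells (median 3.57). Cdh6, a cadherin of the developing and proximal tubule, was at 1.08, 1.51 and 0 CPM in cells and at 131, 111 and 114 CPM in nuclei (6.97 ± 0.35). Magi2, a scaffold of junctions and of the podocyte slit diaphragm, was at 69.6, 70.5 and 94.1 against 2363, 1680 and 1796 CPM (4.64 ± 0.20). Cdh16, the kidney-specific cadherin, went the other way, at 800, 821 and 705 against 176, 144 and 148 CPM (-2.32 ± 0.12). Of 23 genes of cAMP and related signalling, 20 were called higher in nuclei and 1 higher in cells (median 2.11). Pde4d, a phosphodiesterase that breaks down cAMP, was at 41.0, 50.7 and 45.2 against 5305, 4750 and 5692 CPM (6.84 ± 0.17). The 1 higher in cells was Prkar1a, the regulatory subunit of protein kinase A, at 236, 250 and 244 against 38.2, 36.1 and 33.5 CPM (-2.76 ± 0.08). Collagen and basement membrane genes were called higher in nuclei in 14 of 28 cases and higher in cells in 3 (median 1.17). The shares over all genes were 31.8% and 31.3%. Col4a3, of the glomerular and tubular basement membrane, was at 153, 160 and 195 against 1305, 855 and 1224 CPM (2.74 ± 0.18), and Lama2 at 0, 0.756 and 0 against 30.3, 46.6 and 40.6 CPM (6.98 ± 0.48). Fibroblasts moved with this list: a cluster of 610 nuclei, with Lama2, Svep1 and Col14a1 among its leading genes, was named fibroblasts, and 0 cells were. The 5 of 8 fibroblast markers that were listed summed to between 12.7 and 38.75 unscaled CPM in cells and between 26.3 and 56.9 in nuclei, and the part of fibroblasts in these differences was not tested.

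Transcription factors fell on both sides. Of 34 nephron transcription factor genes, 15 were called higher in nuclei and 5 higher in cells (median 0.59), against 31.8% and 31.3% of all genes. Esrrg, an orphan receptor that drives mitochondrial genes, was at 36.1, 40.8 and 26.9 CPM in cells and at 4007, 3470 and 4019 CPM in nuclei (6.79 ± 0.20). Zbtb20 was at 312, 349 and 302 against 2364, 2320 and 2456 CPM (2.89 ± 0.11). Tcf21, a podocyte and stromal factor, was at 55.1, 57.3 and 65.6 against 2.68, 5.97 and 4.48 CPM (-3.75 ± 0.24). Podocytes were also a smaller share of barcodes in nuclei, as given below. Within that class Tcf21 was at 1977, 1975 and 1473 against 177, 382 and 252 CPM (-2.77 ± 0.22, called higher in cells). Nuclear receptors were called higher in nuclei in 10 of 23 cases and higher in cells in 4 (median 0.53), against 31.8% and 31.3% of all genes. Thrb, a thyroid hormone receptor, was at 22.7, 26.9 and 19.03 against 767, 772 and 810 CPM (5.09 ± 0.15). Nr2f6 was at 193, 217 and 210 against 48.0, 42.8 and 39.3 CPM (-2.25 ± 0.10). Circadian clock genes were called higher in nuclei in 9 of 15 cases and higher in cells in 3 (median 1.28), against the same 2 shares. Npas2, a partner of the clock protein BMAL1, was at 6.64, 8.17 and 8.17 CPM in cells and at 78.1, 20.5 and 52.7 CPM in nuclei (2.71 ± 0.47), and the nuclei libraries were uneven in this gene. The time of day of each kidney is not given in the sources used here.

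Transport genes of the tubule, the lists closest to the work of the organ, were called on both sides. Of 41 tested proximal tubule transporter genes, 17 were called higher in nuclei and 7 higher in cells (median 0.59). Slc9a3, the sodium-proton exchanger of the brush border, was at 2.24, 2.40 and 2.69 CPM in cells and at 250, 189 and 199 CPM in nuclei (6.44 ± 0.16). Slc34a1, the sodium-phosphate cotransporter, was at 2272, 2978 and 2126 against 1665, 1753 and 1760 CPM (-0.51 ± 0.15, not called), and Lrp2, the endocytic receptor megalin, at 959, 1323 and 1023 against 1971, 1498 and 1612 CPM (0.62 ± 0.16, not called). Of 45 distal tubule and collecting duct genes, 15 were called higher in nuclei and 16 higher in cells (median 0.04), shares close to the 31.8% and 31.3% of all genes. Slc8a1, the sodium-calcium exchanger of the connecting tubule, was at 60.9, 45.2 and 47.2 against 3669, 1756 and 2539 CPM (5.70 ± 0.31). S100g, the calcium-binding protein calbindin-D9k of the same segment, was at 4882, 4600 and 3378 against 45.0, 21.4 and 35.8 CPM (-6.98 ± 0.34). Fxyd2, a small subunit of the sodium pump, was at 9423, 11376 and 9755 against 430, 400 and 390 CPM (-4.65 ± 0.15). Slc8a1 and S100g, both of calcium transport in 1 segment, had the highest and the lowest fold change of the list.

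The 10 genes with the largest change towards nuclei were RP24-362L9.2, the lincRNA Gm20732, the antisense gene Gm17276, Gm37240, Egfem1, Gm21992, the potassium channel gene Kcnma1, 4732471J01Rik, A330033J07Rik and D5Ertd615e, with log2 fold changes from 9.27 down to 7.49. Kcnma1 (chromosome 14, 725 kb from start to end) was at 1.08, 1.10 and 0 CPM in cells and at 215, 181 and 151 CPM in nuclei (7.86 ± 0.36). Fractions of 0.964 and 0.643 of the exonic bases of Gm37240 and Gm21992 lie inside another gene on the same strand, so their counts are uncertain. The 10 genes with the lowest fitted fold change all had 0 UMIs in the 3 nuclei libraries. Their folds are then only bounded, against a limit of 3 UMIs over the nuclei. They were at least 757-fold (Wfdc17, of macrophages), 782-fold (Asnsd1), 695-fold (S100a4), 528-fold (Dusp19), 444-fold (Trbc2, the T cell receptor beta constant region), 390-fold (Pf4), 373-fold (Cd3g, of the T cell receptor complex), 368-fold (Nkg7, of cytotoxic lymphocytes), 357-fold (Ccl12) and 335-fold (Il1b) higher in cells. In Asnsd1, S100a4 and Dusp19, fractions of 0.976, 0.726 and 0.936 of the exonic bases lie inside another gene.

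Gene span went with the difference across the whole range. The spans and introns were taken from GENCODE M21 (GRCm38), over the 13183 tested genes with no exonic base inside another gene on their strand. The 1652 genes under 5 kb had a median of -2.12, with 69.9% called higher in cells and 6.66% higher in nuclei. The 4241 genes of 5 to 20 kb had a median of -0.92, the 5495 of 20 to 100 kb a median of 0.61, and the 1795 over 100 kb a median of 2.44, with 84.5% called higher in nuclei and 1.62% higher in cells. Spearman's rho between log2 fold change and log10 of the span was 0.644, and Pearson's r was 0.621 (13183 genes, which are no independent replicates and share the 6 libraries). The number of introns went the same way: the 351 genes with no intron had a median of -1.52 and the 1716 with at least 20 a median of 1.50. Under 20 kb, genes with 1 to 4 introns had a median of -1.46 and those with at least 5 a median of -1.04. Over 20 kb the medians were 0.60 and 1.07. At either span, genes with more introns lay higher, and at either number of introns, longer genes lay higher. The 290 lincRNA genes had a median of 0.96, the 341 antisense genes 0.83 and the 12457 protein-coding genes 0.07. The 185 genes with most of their exonic bases inside another gene on the same strand had a median of -1.81, with 56.2% called higher in cells.

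**Figure D3:**
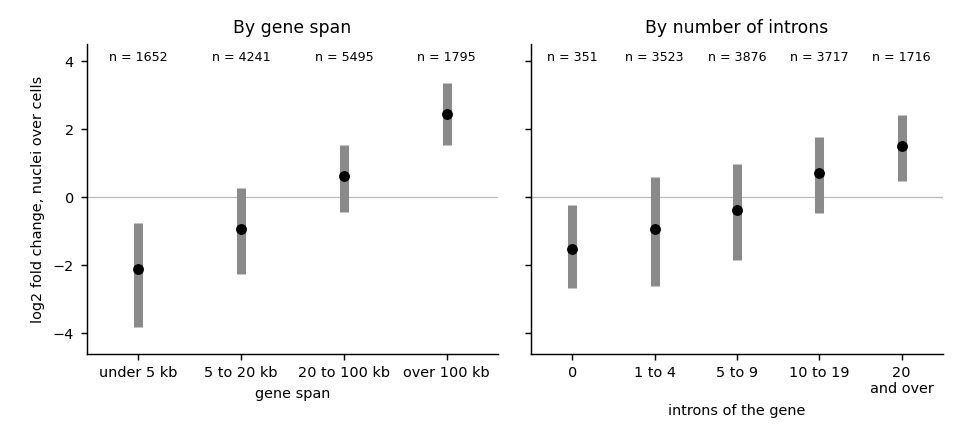
Median log2 fold change of nuclei over cells (points) with the quartiles (bars), for genes grouped by the span from start to end in kilobases and by the number of introns. The median runs from -2.12 for genes under 5 kb to 2.44 for genes over 100 kb, and from -1.52 for genes with no intron to 1.50 for genes with at least 20.

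To separate these differences from those in cell type makeup, the barcodes of each preparation were clustered and named from marker genes. Of 40203 barcodes, 476 of cells and 2059 of nuclei stayed unnamed, and 11 classes had enough barcodes on both sides to test. The proximal tubule made up 54.7% of cells and 42.1% of nuclei (mean of 3 libraries), the thick ascending limb 7.35% and 17.2%, the connecting tubule 7.19% and 2.01%, macrophages 4.17% and 0.60%, and podocytes 2.50% and 0.90%. The connecting tubule share depends on the clustering: a cluster of 523 nuclei led by Trpv5, S100g and Scnn1b, among others, stayed unnamed. So did a cluster of 285 cells led by Hsd11b2, Klk1 and S100g, among others. At resolution 1 the class held 889 cells and 996 nuclei, with a cluster of 908 cells led by S100g left unnamed. At that resolution no cluster of nuclei was named macrophages, and a cluster of 245 nuclei led by the leukocyte gene Ptprc stayed unnamed with 52.7% of its barcodes marked as doublets, so the share and marker results of macrophages rest on the finer clustering. Thin limb barcodes were 0.82% of cells and 2.22% of nuclei. The sum of the thin limb markers over all barcodes was lower in nuclei, between 117 and 139 against between 476 and 579 unscaled CPM. Within the class, 4 of these 7 markers were called higher in cells, against 32.6% of all genes of the class. Another 2 were called higher in nuclei, against 38.3%. Cryab was at 14969, 10052 and 14273 against 301, 264 and 321 CPM (-5.47 ± 0.19). The thin limb share depends on the clustering too, with 135 cells and 522 nuclei named so. At resolution 1 the class held 295 cells and 2 clusters of 521 and 206 nuclei. T cells (1.31%) and monocytes (0.51%) were named among cells only, and fibroblasts (2.65%) among nuclei only. The T cell cluster had Gzma and Nkg7, both NK cell markers, among its leading genes beside Trbc2 and Cd3g, so its share may include NK cells. Of the 79 barcodes of the monocyte cluster, 36.7% were marked as doublets. At resolution 1 no cluster of cells was named monocytes. The summed markers of NK cells were between 27.7 and 56.1 unscaled CPM in cells and between 0 and 1.48 in nuclei. Those of neutrophils were between 54.6 and 122 against between 12.1 and 27.3 unscaled CPM. Of the 5 urothelium markers 1 was listed, between 0 and 1.35 against between 4.00 and 5.56 unscaled CPM. No marker of adipocytes was listed on both sides. By edgeR on barcode numbers, 9 of the 11 classes differed in share at an adjusted p below 0.05, from the thin limb (log2 fold change 1.46 ± 0.19, adjusted p = 9.06e-05) to macrophages (-2.78 ± 0.23, adjusted p = 1.1e-05), while intercalated (0.21 ± 0.23) and principal cells (-0.03 ± 0.20) did not. Without nuclei library 2 or 3, 4 classes were lower in share and 3 higher, against 5 and 4. Endothelial shares overlapped, at 7.38%, 5.64% and 6.46% of cells and 7.03%, 11.3% and 10.8% of nuclei. The study states a minimum UMI count for nuclei alone, and a cluster of 1267 proximal tubule cells had a median of 354 UMIs. The part of that filter in the shares was not tested. The 8 listed T cell markers summed to between 32.9 and 39.04 unscaled CPM in nuclei, against between 50.4 and 77.9 in cells. Among them, Trbc2 and Cd3g had 0 UMIs in the 3 nuclei libraries, so the sum in nuclei comes from other markers of the list. The authors' own cell type names were not used here, and shares may differ for rebuilt names.

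The markers that define a segment differed in how well they carried over from cells to nuclei. Within the proximal tubule class, 18 markers were tested, 3 were called higher in nuclei and 9 higher in cells. The call rate over all genes of this class was 34.1% higher in nuclei and 31.6% higher in cells. Lrp2 was at 2086, 2279 and 2028 CPM in cells and at 2983, 2342 and 2411 CPM in nuclei (0.27 ± 0.13), and Slc34a1 at 4987, 5161 and 4251 against 2416, 2662 and 2568 CPM (-0.91 ± 0.13), both not called. Cubn, the partner of megalin in protein uptake, was higher in nuclei (1.63 ± 0.11), and so was the lactate transporter Slc5a12 (1.79 ± 0.13). Other transporters were higher in cells, namely the sodium-glucose cotransporter gene Slc5a2 (-1.72 ± 0.12) and the organic anion transporter genes Slc22a6 (-1.32 ± 0.13) and Slc22a8 (-1.35 ± 0.11). The metabolic markers ranged widely. Miox, of inositol breakdown (-4.37 ± 0.18), Gatm, of creatine synthesis (-3.75 ± 0.19), and the gluconeogenic enzyme genes Fbp1 (-2.52 ± 0.12) and Pck1 (-1.54 ± 0.20) were lower in nuclei. Acsm2 (-0.77 ± 0.13) and Keg1 (0.52 ± 0.33) were not called, nor was Slc27a2, a fatty acid transporter (adjusted p = 0.97).

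Markers of the distal segments were called on both sides. In the thick ascending limb, 2 of 11 were called higher in nuclei, against 33.1% of all genes of the class, and 6 higher in cells, against 30.5%. Slc12a1, the cotransporter blocked by loop diuretics, was at 9401, 7877 and 8384 against 17838, 19244 and 18470 CPM (1.11 ± 0.10). Umod, the secreted protein uromodulin, was at 32863, 30262 and 25999 against 2275, 1903 and 1579 CPM (-3.95 ± 0.14). The genes of the tight junction claudins Cldn10 (-2.92 ± 0.10), Cldn16 (-2.39 ± 0.12) and Cldn19 (-1.97 ± 0.15) were also higher in cells. In the distal convoluted tubule, 4 of 8 markers were called higher in nuclei and 3 higher in cells (32.8% and 31.5% of all genes of the class). Slc12a3, the thiazide-sensitive cotransporter, was higher in nuclei (1.88 ± 0.12) and Pvalb, the calcium buffer parvalbumin, lower (-4.78 ± 0.14). In the connecting tubule, Slc8a1 was at 519, 491 and 452 against 81760, 55026 and 76582 CPM (7.19 ± 0.23), and S100g at 46531, 51534 and 43466 against 432, 190 and 527 CPM (-6.95 ± 0.26). Principal cell markers were called higher in cells in 6 of 11 cases, against 32.3% of all genes of the class, and higher in nuclei in 0, against 33.2%, with the water channel gene Aqp2 at -3.61 ± 0.22 and the sodium channel subunits Scnn1b (0.40 ± 0.15) and Scnn1g (0.40 ± 0.16) not called. Of 13 intercalated cell markers, 4 were called higher in nuclei and 5 higher in cells (35.2% and 29.7% of all genes of the class), and pendrin (Slc26a4) was higher in nuclei (2.79 ± 0.13) and Slc4a1, the basolateral anion exchanger, lower (-1.69 ± 0.15).

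Podocyte and endothelial markers were called on both sides as well. In podocytes, 2 of 9 were called higher in nuclei and 4 higher in cells, against 32.2% and 40.8% of all genes of the class. Nphs1 (nephrin) was not called (0.77 ± 0.15), Wt1 (1.23 ± 0.15) and Ptpro (2.40 ± 0.15) were higher in nuclei, and Clic3 (-4.92 ± 0.19) and the cell cycle inhibitor gene Cdkn1c (-4.50 ± 0.24) were lower. In endothelial cells, 3 of 12 were called higher in nuclei and 4 higher in cells (31.9% and 31.6% of all genes of the class). Emcn (0.09 ± 0.10) and Pecam1 (0.19 ± 0.10) were not called, Flt1 (1.09 ± 0.10) was higher in nuclei, and Egfl7 was lower (-5.82 ± 0.16). Of 10 markers of mesangial and mural cells, 7 were called higher in cells, against 40.4% of all genes of the class, and 1 higher in nuclei, against 35.5%. The contractile genes Acta2 (-8.01 ± 0.35) and Myh11 (-2.92 ± 0.18) were among those higher in cells, and Notch3 (1.18 ± 0.19) was higher in nuclei. All 9 macrophage markers were called higher in cells (median -5.32), against 36.4% of all genes of the class called higher in cells and 37.7% higher in nuclei. C1qa, of the complement cascade, was at 12651, 12747 and 14263 against 65.8, 105 and 166 CPM (-6.89 ± 0.25), and Adgre1, the F4/80 antigen, at 293, 386 and 395 against 150, 54.9 and 179 CPM (-1.53 ± 0.31). The 140 nuclei named macrophages also carried proximal tubule markers at a summed 8948 to 13185 unscaled CPM, against 3293 to 6738 in macrophages among cells and 20172 to 22636 in proximal tubule nuclei. The part of that RNA in the values of this class was not tested.

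Most of the list differences were found again inside single classes. Of the 2871 genes tested in all 11 classes, 799 (27.8%) were called higher in nuclei in every class and 947 (33%) higher in cells in every class. Every large-subunit ribosomal gene tested in all classes (46) was higher in cells in each of them, as were all 33 of the small subunit, all 18 of the ATP synthase, all 10 of complex IV and 34 of 36 of complex I. The class medians of the large subunit lay between -6.92 in macrophages and -5.69 in endothelial cells. Endothelial cells had the smallest shift of the classes in both ribosomal lists, in translation factors (-3.00), in complex I (-3.86) and in the ATP synthase (-3.99); these differences between classes were not tested. On the side of nuclei, 12 of 15 junction and adhesion genes, 7 of 9 cAMP signalling genes, 7 of 9 nephron transcription factor genes and 14 of 37 chromatin regulator genes were called in every class. Of the nuclear noncoding RNAs, 3 of 6 were. The nephron transcription factor list had its highest class median, 3.79, in macrophages. The nuclei named macrophages also carried proximal tubule markers, as given above. The part of RNA from other cells in the calls of every class was not tested. Malat1 was called in 7 of 11 classes, and not in endothelial cells, macrophages, mesangial and mural cells or podocytes. Neat1, named after its values were seen, was called in 11 of 11.

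**Figure D4:**
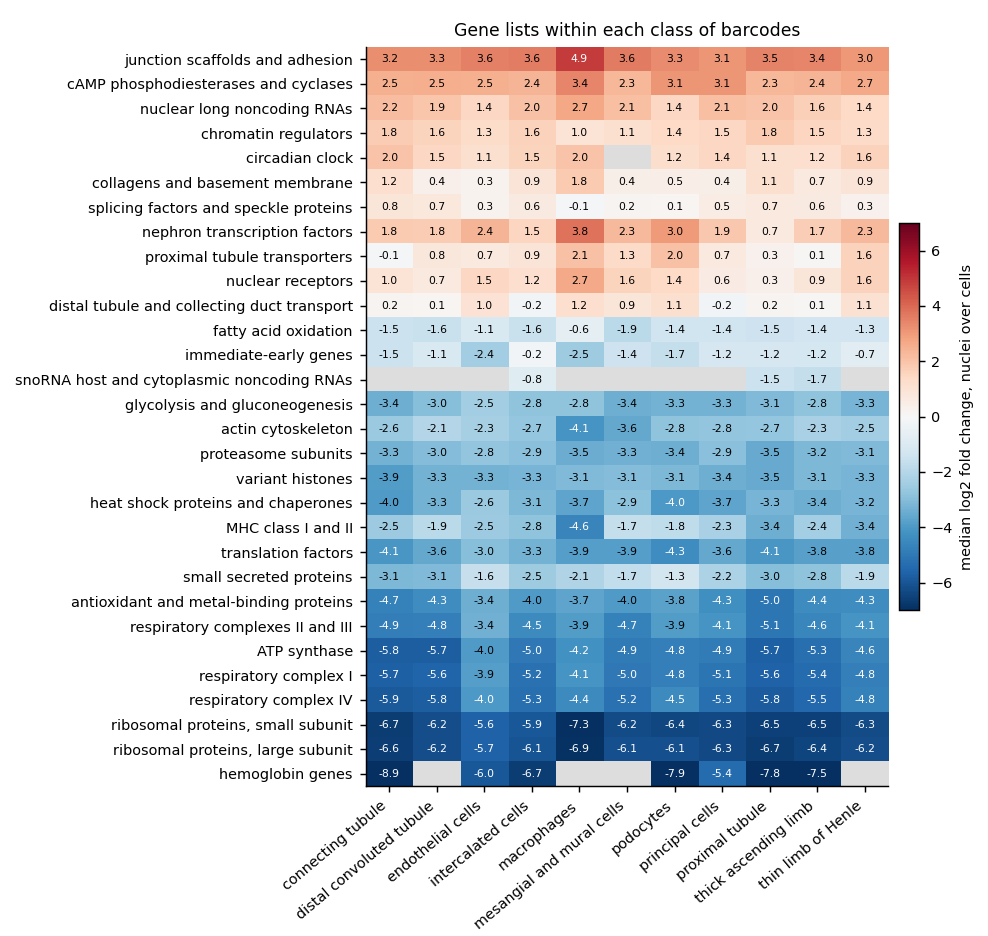
Median log2 fold change of nuclei over cells of each gene list (rows) within each class (columns), from 1 edgeR fit per class and for lists with at least 3 genes tested there. Ribosomal, respiratory and translation lists are at or below -3.00 in every class, and junction and adhesion genes are between 3.03 and 4.88.

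Single genes showed how far the classes shared a difference. Gapdh was at 3813, 4007 and 3802 CPM in proximal tubule cells and at 3.76, 8.56 and 5.94 CPM in proximal tubule nuclei, and at 695.6, 883 and 704 against 0, 1.90 and 0.777 CPM in endothelial cells. Sugct, a coenzyme A transferase of glutarate metabolism, was at 19.1, 19.4 and 22.3 against 2057, 1990 and 2034 CPM in the proximal tubule (6.65 ± 0.13). It was also called in endothelial cells, at 0, 0 and 3.62 against 229, 192 and 201 CPM, and in the other 9 classes. The nuclei of those classes held between 175 and 993 CPM. Erbb4, a receptor for neuregulins, was at 166, 168 and 142 against 12458, 12118 and 12694 CPM in the thick ascending limb (6.28 ± 0.12) and at 0, 6.49 and 0 against 509, 327 and 363 CPM in endothelial cells. For comparison, in endothelial nuclei the summed proximal tubule markers were 1839, 1599 and 1487 unscaled CPM, and in endothelial cells 2239, 4819 and 2274, against 20172 to 22636 and 36789 to 37667 in the proximal tubule itself. The part of RNA from other cells, free or in doublets, in the low levels was not tested.

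Of the 13293 genes tested in at least 1 class, 214 were called in opposite directions in different classes. Plek, a platelet and leukocyte protein, was higher in cells in macrophages (166.8, 61.8 and 184 against 17.9, 44.9 and 25.6 CPM, -2.16 ± 0.45) and higher in nuclei in endothelial cells (0, 0 and 0 against 18.9, 27.2 and 24.1 CPM). Cx3cr1, the fractalkine receptor of macrophages, was at 920, 1034 and 1303 against 65.8, 44.9 and 95.9 CPM in macrophages (-4.00 ± 0.29). In the proximal tubule it was at 0, 0.377 and 0.413 against 6.96, 7.55 and 6.73 CPM (4.60 ± 0.39). Slc5a1, a sodium-glucose cotransporter, was at 244, 251 and 197 against 106, 61.8 and 75.5 CPM in the thick ascending limb (-1.52 ± 0.16) and at 0, 0 and 0 against 9.89, 8.69 and 16.1 CPM in the distal convoluted tubule. In each of these the direction towards nuclei came from the class with the lower level.

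The same preparations had also been compared in 18-week-old male Balb/c mice, untreated and from the same litter, with version 2 chemistry and 3 libraries each. Sex, age, chemistry, batch and depth differ together between the experiments and cannot be told apart. In a fit of all 12 libraries over 13430 genes, the interaction of preparation and experiment called 365 genes with a larger log2 fold change of nuclei over cells at 15 weeks (2.72%) and 4361 with a smaller one (32.5%). This count depends on scaling, since the median over all genes was -0.75. After centring each gene on that median, an alternative added after seeing the data, 1703 were larger and 2181 smaller. Leaving out any 1 of the 6 nuclei libraries gave 1030 to 1091 larger and 2477 to 2740 smaller. On the centred scale, ribosomal protein genes still differed more between the preparations at 15 weeks. The large-subunit medians were -6.38 at 15 and -3.90 at 18 weeks, the centred median was -1.60, and 39 of 48 genes were called smaller and 3 larger (44 and 0 before centring). For the small subunit the medians were -6.37 and -4.10, with 30 of 33 called smaller after centring (31 before), and for complex I -5.31 and -3.77, with 19 of 36 (29 before). Junction and adhesion genes had medians of 3.55 and 3.35, and their balance depends on the scaling: 1 of 31 was called larger and 4 smaller before centring, and 13 larger and 1 smaller after it. Nephron transcription factor genes were at 0.57 and 0.92, with 4 of 34 called larger and 3 smaller before centring and 13 and 1 after it. Each of the 10 genes with the largest interaction was at 0 UMIs in at least 1 group of 3 libraries.

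Bulk RNA-seq of the same kind of mouse was made without droplets or isolated nuclei. Intact kidney and suspension both hold RNA of whole cells, so their comparison does not test the difference between nuclei and cells. Whole kidney and cold-dissociated suspension, 3 libraries each, were compared by edgeR on 16538 genes, and 589 genes (3.56%) were called higher in intact kidney and 316 (1.91%) higher in suspension. Ribosomal and respiratory genes were not called in either direction, with list medians between -0.08 and -0.03 (log2, intact over suspension). Gapdh was at 505, 484 and 497 CPM in intact kidney and at 557, 552 and 605 CPM in suspension (-0.21 ± 0.06, not called), and Rpl21 at 134, 139 and 146 against 145, 142 and 137 CPM (-0.02 ± 0.05). The medians by gene span differed little in this comparison, at -0.03 for genes under 5 kb and 0.07 for genes over 100 kb. All 4 hemoglobin genes were called higher in suspension (median -2.38), with Hbb-bs at 57.1, 39.1 and 138 against 288, 149 and 565 CPM. Of 30 collagen and basement membrane genes, 11 were called higher in intact kidney and 0 higher in suspension (median 0.42), Lama2 among them at 13.6, 15.9 and 11.6 against 2.77, 2.07 and 4.53 CPM (2.14 ± 0.24).

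**Figure D5:**
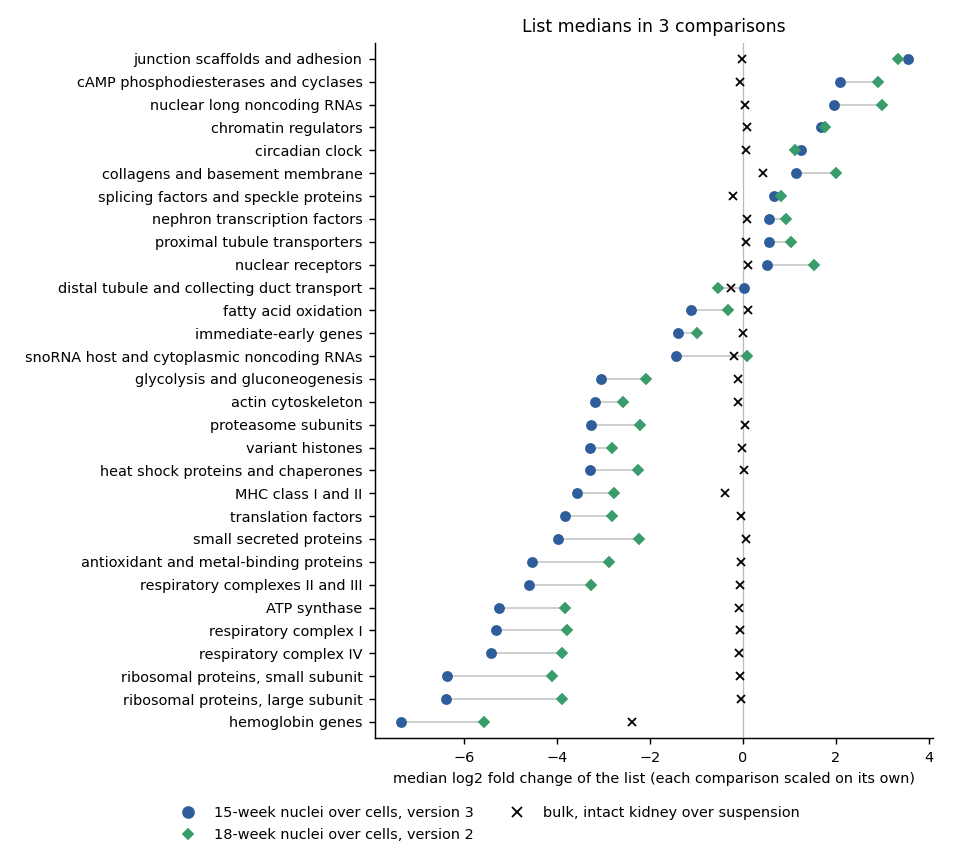
List medians of the log2 fold change in 3 comparisons: nuclei over cells at 15 weeks, nuclei over cells at 18 weeks, and intact kidney over cold suspension in bulk RNA-seq. Large-subunit ribosomal genes are at -6.38, -3.90 and -0.03, and junction and adhesion genes at 3.55, 3.35 and -0.01.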

How the data were processed

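UMI counts per gene and barcode were deposited by the authors as 1 matrix per library, made with Cell Ranger 2.1.1 on mm10, with exonic reads for cells and exonic plus intronic reads for nuclei, and filtered on genes and barcodes. The deposited bulk tables hold read counts per gene. Counts were summed per library, and per library and class, and tested with edgeR 4.0.16 (R 4.3.3; TMM, filterByExpr, quasi-likelihood test, Benjamini-Hochberg adjustment), without pairing, since the labels do not pair mice. Depth was 16622862 to 30416400 UMIs per library. Classes came from Leiden clusters (leidenalg 0.10.2) of each preparation, and marked doublets were kept in the main fit. The fits were tested on simulated data in which 200 genes changed, as many up as down, and the others did not. Recovery was counted at adjusted p below 0.05 alone, without the fold threshold. Over 13762 genes of all barcodes, 84% of genes changed by 1 on the log2 scale and 97% of those changed by 2 were recovered. Of the calls, 7.18% were false. In macrophages (5150 genes) 28% and 81% were recovered, and in the interaction (13430 genes) 36% and 71%. Data in which most genes change, as here, were not simulated, so the simulation does not test the scaling. Alternatives were DESeq2 1.42.0, RLE factors, library totals, other filters and thresholds, equal class numbers, doublets removed and each library left out. The gene lists, markers and rules were chosen with earlier results of these data known. Genes were named by rule: the 10 largest called changes each way with at least 10 CPM in the higher group, up to 4 members per list with the largest change each way and the highest level, 5 genes each way by number of classes, the 5 widest opposite calls, and the 5 largest interactions each way. P-values measure the spread between 3 libraries per group. Values of some genes are not reported here.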

Additional observations from a re-analysis of the deposited data

Results flagged for a closer look

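The 10 genes named by rule had the largest differences between the 15-week and 18-week comparisons by the interaction test, given as log2 fold change of nuclei over cells at 15 weeks minus that at 18 weeks. Smaller at 15 weeks were Mt3 (-15.74), Hyal1 (-15.62), Apoa2 (-14.92), Gm10642 (-14.42) and Cd8a (-14.38). Each of these had 0 UMIs in nuclei at 15 weeks and 0 in cells at 18 weeks, so the fitted values are no bounds. Mt3 had 195 UMIs in 15-week cells and 22 in 18-week nuclei, and Apoa2 had 202 and 12. Larger at 15 weeks were Hist2h2aa1 (8.58), Lrrc8a (8.31), 2610016A17Rik (7.87), Gm10020 (7.55) and Nkrf (7.30), all with 0 UMIs in 18-week nuclei. Larger here means a higher signed value: the fitted fold change of Lrrc8a was -5.33 at 15 weeks and -12.4 at 18 weeks. Lrrc8a had 1068 and 75 UMIs in cells and nuclei at 15 weeks and 663 in cells at 18 weeks.

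The genes with the widest span between classes called in opposite directions were Plek (9.64), Gm11716 (9.38), Cx3cr1 (8.60), Slc5a1 (8.12) and Cd109 (7.85). The difference between classes was not itself tested. In Plek, Gm11716, Slc5a1 and Cd109 the higher end was fitted against 0 in all 3 cell libraries of that class, so these spans depend on the prior count and are no bounds. Further signals lay outside the gene comparison. Mitochondrial genes took a mean of 32.7% of the UMIs of cells, and the genes listed for nuclei alone took a mean of 1.82% of the UMIs of nuclei.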

How the results depend on the processing

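No paired analysis was possible because the labels give cells and nuclei no shared number or mouse: the numbers 1 to 3 used here only name the libraries of a group, in accession order. Of the values recomputed for whole comparisons, 148 kept their side, with counts within 1.5 times, and 28 moved. The difference in median UMIs per barcode kept its side and went from 1835 to 998 over all genes listed in each file. Of counts within single classes, 253 stayed and 25 moved. With the thresholds of the study's methods, 884 genes were higher in nuclei and 356 higher in cells in the proximal tubule, and 43 and 110 in every class. Without a filter on low counts 1314 and 1529 were called in every class. Adjusted p alone gave 2005 and 1308 genes in bulk. For the interaction, genes with a larger signed log2 fold change at 15 weeks numbered 999 by adjusted p alone, 958 by DESeq2, 901 by RLE factors and 783 by totals. Those with a smaller one numbered 2869 by RLE factors. Centring on the median of all genes, added after seeing the data, gave 1703 and 2181. Leaving out 1 library gave 333 to 1091 larger and 2477 to 4719 smaller. At clustering resolution 1, 10 classes could be tested, macrophages no longer among them, and 3 had a lower share in nuclei, against 5 of 11. The causes were not tested.

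Among named genes 1863 values stayed, 8 became called, 20 were no longer called and 13 reversed. Library totals ended the calls of Cx3cr1 (-0.85), Eif5b (-0.89), Meg3 (-3.46), Ndufs1 (-0.63), Plek (-1.01), Snhg12 (-0.56) and Zfp36l1 (-0.72), and DESeq2 that of Meg3 (-3.95). Snhg12 was also lost with equal class numbers (-0.93) and with marked doublets removed (-0.99). With 1 library left out, calls were lost in Cx3cr1 (-0.87 without cells replicate 3), Gclc (0.57 without nuclei replicate 1), Ndufs1 (-0.98 without cells replicate 2), Meg3 (between -4.06 and -2.42, without cells replicate 2 or 3 or nuclei replicate 2 or 3) and Snhg12 (between -0.99 and -0.88, without cells replicate 2 or nuclei replicate 1 or 3). Library totals turned Acsm2 to 0.0571, Cd109 to 0.12, Gm11716 to 0.23, Hspa4l to 0.18 and Nkrf to 0.0276. Equal class numbers turned Cx3cr1 to 0.59 and Slc5a1 to -0.23. Psmd1 went to -0.0375 by DESeq2 and to -0.0376 by RLE factors. With 1 library left out, Psmd1 lay between -0.076 and 0.0566 (lowest without nuclei replicate 1, highest without nuclei replicate 3), Gm11716 between -0.516 and 0.10 (highest without cells replicate 1), and Slc5a1 between -0.0357 and 0.207 (lowest without cells replicate 3). Leaving out genes with exons inside another gene, also added after seeing the data, kept both counts within 1.5 times.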
